A study of Mus musculus with 2 samples.

Results

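The 10 genes described here are Trem2 and its adaptor Tyrobp, the TAM receptors Axl and Mertk with their ligands Gas6 and Pros1, and 4 genes of the phagocytic response, Itgax, Gpnmb, Spp1 and Cd9. They were chosen by symbol out of 31053 features. They were followed in sorted microglia, the resident macrophages of the brain, from 3-month-old female C57BL/6 mice. 1 droplet library came from wild-type (WT) mice and 1 from a pool titled IRF8KO, after the transcription factor IRF8, each with pooled cells of 3 mice, sorted by flow cytometry after isolation without enzymes. The genotype entry of the second sample reads WT, so it is called the library labelled IRF8KO. The labels name no Irf8 allele and do not tie cells to single mice. Since each group is 1 library, genotypes were not tested against each other, differences have no replicate check, and all intervals are exact 95% intervals that cover counting error only. Where a count is 0, the limit given is a share of 3 counts.

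A cell was used if it had 1000 or more UMIs (molecular tags that each count a captured transcript), 500 or more genes and no more than 10% of UMIs from mitochondrial genes. Cells with 2% or more of their UMIs in Camp, Ngp, S100a8, S100a9, Lcn2 and Ltf were set aside as neutrophil-like. This left 3304 of 3504 WT barcodes, with 18543061 UMIs, and 5007 of 5303 barcodes of the library labelled IRF8KO, with 18980263 UMIs. The median cell had 3204.5 and 2933 UMIs. Of the kept cells, 98 were neutrophil-like, all in the library labelled IRF8KO. The lowest neutrophil share among them was 2.36% and the highest among the cells used was 0.232%. The libraries shared 5 barcodes, and leaving these out moved no value beyond its counting interval. Irf8 itself stood at 794 CPM (UMIs scaled to a total of 1e6, 781 to 807) in WT. The library labelled IRF8KO had 669 CPM (657 to 681), which does not check the title, since UMIs outside a deleted part check nothing. The microglia markers were present in both libraries, but 7 of 12 were at least 2-fold lower in the library labelled IRF8KO, against 9.28% of all genes at 10 CPM or more. Sall1, a transcription factor that defines microglia, fell to 2.85 CPM there from 511 CPM. The 2 of the 12 that were higher, Fcrls and Olfml3, went from 1792 to 1891 CPM and from 1206 to 1268 CPM. The 9 border macrophage markers summed to 14.1 CPM in WT cells and to 2852 CPM in the others. Lyve1 had 0 and 2 UMIs, and Folr2 went the other way, from 32 to 4 UMIs. The second library is therefore described by its label and not as microglia.

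TREM2 is a surface receptor for lipids and lipoproteins that has no signalling tail of its own. It pairs with TYROBP (DAP12), whose cytoplasmic motif recruits the kinase SYK. The TAM receptors TYRO3, AXL and MERTK bind dying cells through the bridging proteins GAS6 and protein S (Pros1), which attach to exposed phosphatidylserine. In disease, microglia that engage these receptors are known to take up a state called disease-associated (DAM), in which Itgax (the integrin chain CD11c), Gpnmb (a lysosomal glycoprotein), Spp1 (osteopontin) and Cd9 (a tetraspanin) are characteristic genes.

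The receptors and the response genes did not move together. Trem2 was close to its WT level, Tyrobp was 1.62-fold higher, Mertk and Axl were slightly lower or within counting error, and the ligands went opposite ways: Pros1 was 5.46-fold lower and Gas6 1.62-fold higher. Of the response genes, Gpnmb and Itgax were higher but were found in few cells, Spp1 was nearly absent, and Cd9 was 1.21-fold higher. Of the 10 genes, 2 (Itgax and Gpnmb) were at least 2-fold higher and 2 (Pros1 and Spp1) at least 2-fold lower in the library labelled IRF8KO. A total of 6 of the 10 reached 10 CPM in a library. Among all 8859 genes that did, 5.61% were at least 2-fold higher, 9.28% at least 2-fold lower and 14.9% either, against 0, 1 and 1 of these 6. The other 4, Axl, Itgax, Gpnmb and Spp1, peaked between 5 and 10 CPM. Of the 1127 genes in that range, 10.0% were at least 2-fold higher and 14.6% at least 2-fold lower. The median log2 ratio of the 8859 genes was -0.28, and its cause was not tested. Apoe made up 0.0478% of WT UMIs but 8.83% of those labelled IRF8KO. Ribosomal protein genes made up 6.49% and 13.2%, and mitochondrial genes 2.17% and 3.93%. The median moved by 0.077 when the 10 genes with most UMIs were left out of the totals. It moved by 0.15 when mitochondrial and ribosomal protein genes were left out. Scaling by trimmed means (TMM) moved that median by 0.26, so ratios of the 10 genes and most list medians are also given relative to it. Relative to it, Axl stood at 0.07, Itgax at 1.32, Gpnmb at 4.76 and Spp1 at -3.17.

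**Figure D1:**
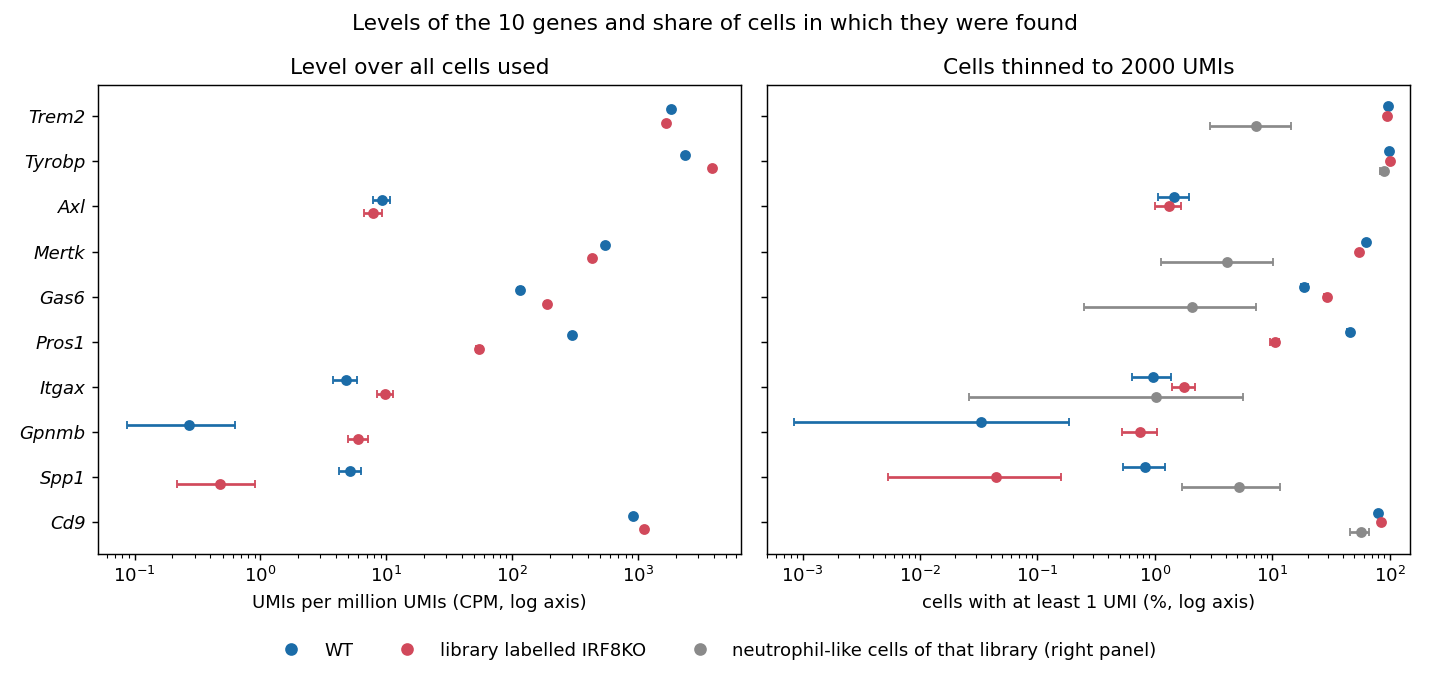
Left, level of each gene in CPM (log axis) in the WT library and the library labelled IRF8KO. Right, share of cells with at least 1 UMI after thinning each cell to 2000 UMIs (log axis), with neutrophil-like cells in grey where the share is above 0; bars are exact 95% intervals for counting error, and Gpnmb, Spp1 and Pros1 show the widest gaps between the libraries.

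The sequences before the starts of Trem2, Itgax and Spp1 are shown because, of the members' windows, they hold the matches upstream of a start site to AP-1, interferon or PU.1 motifs. RefSeq windows (GRCm38.p6, 250 bases before to 50 after the start) matched 9 of the 10 genes, with 2 windows for Spp1. The other Spp1 window, at chr5:104435942-104436241, held no match to a searched motif and is not shown. The 160 bases before the start are given 5′ to 3′ on the gene's strand, with motif matches in capitals. The Trem2 stretch lies at chr17:48346241-48346400 on the + strand, Itgax at chr7:128129390-128129549 on the + strand and Spp1 at chr5:104434951-104435110 on the + strand.
Trem2: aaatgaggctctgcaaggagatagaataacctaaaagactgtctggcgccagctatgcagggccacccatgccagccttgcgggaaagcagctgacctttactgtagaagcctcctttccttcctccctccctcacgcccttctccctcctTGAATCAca
Itgax: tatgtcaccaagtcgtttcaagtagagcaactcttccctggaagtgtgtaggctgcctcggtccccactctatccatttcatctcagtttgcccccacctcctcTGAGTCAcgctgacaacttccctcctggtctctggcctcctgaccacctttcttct
Spp1: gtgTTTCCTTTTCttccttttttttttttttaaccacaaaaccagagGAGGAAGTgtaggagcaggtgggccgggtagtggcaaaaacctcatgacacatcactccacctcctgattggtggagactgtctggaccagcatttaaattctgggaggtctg
In Trem2 and Itgax the capitals mark TGANTCA, the AP-1 motif, which also occurred after the start of Gpnmb and in 7.81% of 32851 windows of all genes. In Spp1 they mark the interferon response element (GAAA and GAAA, 2 bases apart), on the opposite strand, and the PU.1 motif GAGGAAGT, found in 3.44% and 3.20% of all windows. The composite motif of IRF factors with PU.1 (GGAA and GAAA, 2 bases apart), which can overlap the interferon element, was in 2.72% of all windows and in none of the members' windows. Both strands were searched, also for the E-boxes CACGTG (7.15% of windows) and CATGTG (14.2%), of which Cd9 held the latter, and a match is a description of letters and not a binding site.

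Trem2 (chromosome 17, 48346401 to 48354147, + strand, GRCm38) had 33858 WT UMIs, or 1826 CPM (1807 to 1845). The library labelled IRF8KO had 31876, or 1679 CPM (1661 to 1698). The log2 ratio of that library over WT, used throughout, was -0.12 (-0.14 to -0.10), and 0.16 above the median gene. Its sign depended on the scale, at 0.13 by TMM and 0.022 when mitochondrial and ribosomal protein genes were left out of the totals. At equal depth, with each cell thinned to 2000 UMIs, the median cell of both libraries held 3 Trem2 UMIs, with quartiles of 2 and 5. A Trem2 UMI was present in 96.1% (95.4 to 96.8) of 3019 WT cells and 94.4% (93.7 to 95) of 4509 cells of the library labelled IRF8KO, against 98.6% and 97.4% without thinning. In neutrophil-like cells, which should lack the gene, it was 7.22% of 97 cells at a median unthinned depth of 7057.5 UMIs.

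Tyrobp (chromosome 7, 30413760 to 30417585, + strand) was higher per cell. Its level was 2381 CPM (2358 to 2403) in WT, and the library labelled IRF8KO had 3859 CPM (3832 to 3887). The log2 ratio was 0.70 (0.68 to 0.71), 0.98 above the median gene and 0.95 by TMM. The median was 5 UMIs per thinned WT cell against 8 per thinned cell of the other library. Of the latter's cells, 29.1% (27.8 to 30.4) exceeded the 95th percentile of WT. Of the UMIs of the receptor and its adaptor together, Tyrobp took 56.6% (56.2 to 56.9) in WT and 69.7% (69.4 to 70.0) in the other library. That share compares the libraries and is not a ratio of the proteins, and no scaling of the totals enters it. Hcst, which encodes the alternative adaptor DAP10, was higher as well, at 62.1 CPM against 21.2 CPM, a log2 ratio of 1.55 (1.38 to 1.71).

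**Figure D2:**
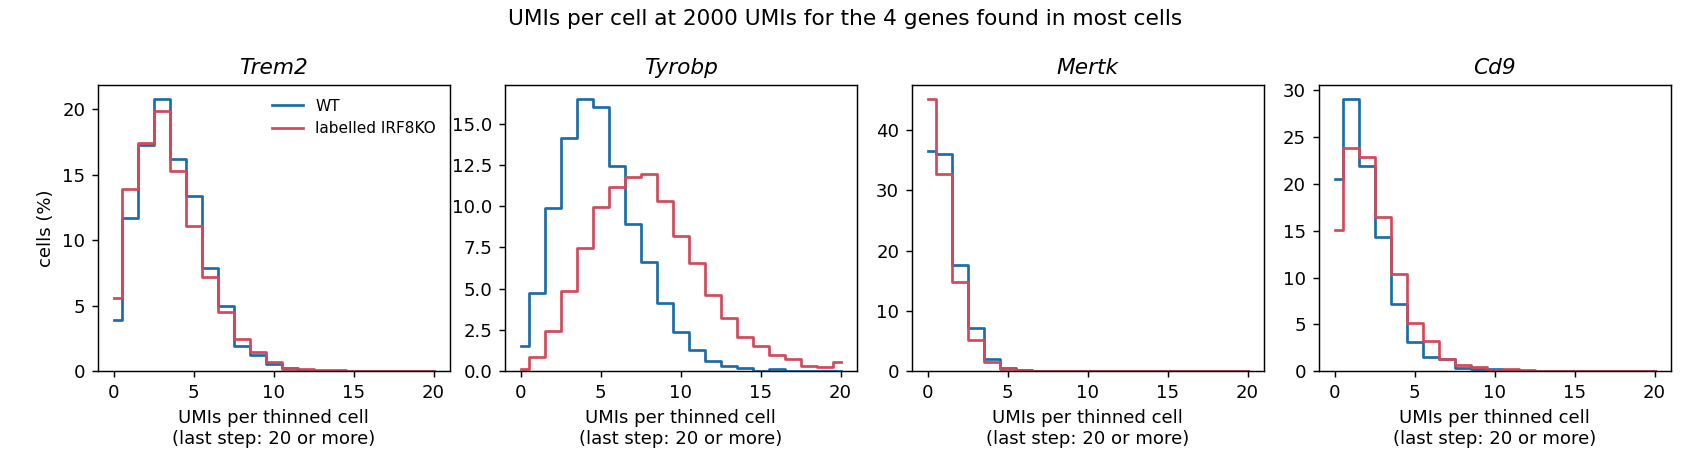
Share of cells (y, %) by number of UMIs (x) per cell thinned to 2000 UMIs, for Trem2, Tyrobp, Mertk and Cd9, in the WT library (blue) and the library labelled IRF8KO (red). The Trem2 curves nearly coincide at a median of 3 UMIs, while Tyrobp moves from a median of 5 to 8 UMIs.

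Signalling genes downstream of TREM2 and TYROBP were mostly a little lower, about as all genes were. Of 24 listed genes, 23 reached 10 CPM in a library, with a median log2 ratio of -0.42, or -0.15 relative to all genes. Only Hcst was at least 2-fold higher, while 3 of the 23 (Lat2, Pik3r1 and Pik3cd) were at least 2-fold lower, against 9.28% of all genes. Under TMM scaling 0 of them were. Lat2, an adaptor of the linker family, stood at -1.15 (-1.26 to -1.04) and Pik3r1, a regulatory subunit of phosphoinositide 3-kinase, at -1.06, with 5822 and 2855 UMIs. Syk, the kinase itself, stood at 125 CPM against 81.1 CPM in the library labelled IRF8KO, and Plcg2, its phospholipase substrate, at 112 and 72.1 CPM. Adam10 and Adam17, the proteases that shed TREM2, stood at -0.92 (-0.98 to -0.85) and -0.99 (-1.08 to -0.90). Of the other TREM receptors, 5 of 6 listed genes were in the table, and Trem1 alone reached 10 CPM. Trem1, known from neutrophils and monocytes, had 0 WT UMIs against 213 in the other library. With a floor of 3 counts over the group, it was at least 69.4-fold higher. It stood at 11.2 CPM there and at 23.7 CPM in neutrophil-like cells. The 8 neutrophil markers summed to 2.48 CPM in WT cells and to 54.3 CPM in the cells used of the other library, and their part in the Trem1 value was not tested.

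Mertk (chromosome 2, 128698956 to 128802894, + strand), the TAM receptor of resting macrophages, was slightly lower. WT cells had 549 CPM (538 to 559), and the library labelled IRF8KO had 435 CPM (426 to 444). The log2 ratio was -0.34 (-0.38 to -0.29), and -0.06 from the median gene. At equal depth 63.4% (61.6 to 65.1) and 54.7% (53.3 to 56.2) of cells had a Mertk UMI, against 4.12% of neutrophil-like cells (79.5% and 69.1% without thinning). Axl (chromosome 7, 25757273 to 25788705, - strand), the inducible TAM receptor, was scarce in both libraries. It had 170 UMIs in 135 WT cells and 150 in 120 cells of the other library, 9.17 and 7.90 CPM, with a log2 ratio of -0.21 whose interval (-0.54 to 0.11) includes 0. At equal depth 1.46% (1.06 to 1.95) and 1.31% (0.998 to 1.68) of cells had an Axl UMI, against 0 of 97 neutrophil-like cells. That count allows up to 3.09%, above both shares, so background at their level was not detectable. Tyro3, the remaining TAM receptor, had no UMI in either library.

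The TAM ligands went opposite ways. Pros1 (chromosome 16, 62854307 to 62929346, + strand), encoding protein S, had 5531 WT UMIs but 1037 in the library labelled IRF8KO. Its level was 298 CPM (290 to 306) in WT against 54.6 CPM (51.4 to 58.1). The log2 ratio was -2.45 (-2.55 to -2.35), and -2.17 from the median gene. Its share of cells at equal depth was 45.4% (43.7 to 47.2) in WT and 10.5% (9.61 to 11.4) in the other library, with 0 of 97 neutrophil-like cells, and 66.5% and 17.0% without thinning. Gas6 (chromosome 8, 13465374 to 13494490, - strand) had 2162 WT UMIs against 3585 in the other library, 117 CPM (112 to 122) and 189 CPM (183 to 195). Its log2 ratio was 0.70 (0.62 to 0.77), and 0.98 above the median gene. A Gas6 UMI was found in 18.8% (17.4 to 20.2) and 29.0% (27.7 to 30.4) of thinned cells, 2.06% of neutrophil-like cells, and 35.7% and 43.1% of unthinned cells. Of the UMIs of both ligands, Gas6 took 28.1% (27.1 to 29.1) in WT but 77.6% (76.3 to 78.8) under the IRF8KO label, shares that no scaling of the totals enters. Per cell, 36.0% (34.3 to 37.7) of WT cells had Pros1 without Gas6 and 9.34% had Gas6 without Pros1. In the other library 7.52% (6.77 to 8.33) had Pros1 without Gas6, 26.0% (24.8 to 27.3) had Gas6 without Pros1, and cells with neither went from 45.2% to 63.5%.

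The ligand and adaptor ratios kept their sign in cells of every depth range. Over cells of 1000 to 2000, 2000 to 4000, 4000 to 8000 and at least 8000 UMIs, the Pros1 log2 ratio was -2.60, -2.46, -2.51 and -2.49. The Gas6 ratio was 0.74, 0.78, 0.70 and 0.72 in the same ranges. The Tyrobp ratio was 0.89, 0.64, 0.66 and 0.59, and the Trem2 ratio -0.17, -0.01, -0.17 and -0.24. Each range held 285, 1935, 646 and 438 WT cells and 498, 3353, 877 and 279 cells of the other library.

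**Figure D3:**
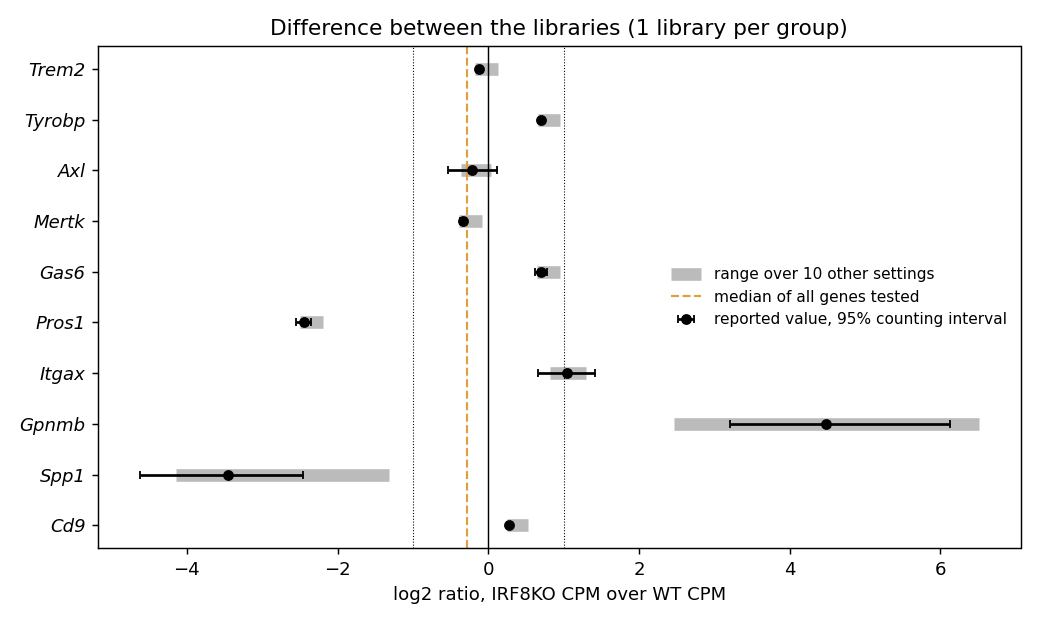
log2 ratio of IRF8KO CPM over WT CPM for each gene (points, with exact 95% counting intervals) and its range over 10 other settings (grey); dotted lines mark 2-fold and the dashed line the median of all genes, -0.28. Pros1 and Spp1 stay left of -1 and Gpnmb right of 1 in all of these settings, Itgax straddles 1, and Trem2 and Axl straddle 0.

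Other receptors for dying cells were mixed. Of 20 listed genes, 12 reached 10 CPM, with a median of -0.43, or -0.15 relative to all genes. Of these 12, 2 were at least 2-fold higher (16.7%, against 5.61% of all genes) and 1 at least 2-fold lower (8.33%, against 9.28%). Msr1, a scavenger receptor, had 19 WT UMIs and 514 in the other library, a log2 ratio of 4.72 (4.07 to 5.47), and reached 10 CPM in the latter alone. Stab1, a scavenger receptor of tissue macrophages, was at 251 and 524 CPM, a ratio of 1.06 (1.01 to 1.11). Itgb3, an integrin chain that binds the bridging protein MFGE8, had 700 and 239 UMIs, a ratio of -1.58 (-1.80 to -1.37). Of 16 genes of the engulfment machinery, 13 reached 10 CPM, with a median of -0.30, or -0.02 relative to all genes. None was 2-fold higher (against 5.61% of all genes) and 1 was 2-fold lower (7.69%, against 9.28%). That 1 gene was Coro1a, an actin-binding protein of the phagosome, at -1.49 (-1.55 to -1.43). Wasf2 and Rac1, which drive actin branching, stood at -0.98 (-1.03 to -0.94) and -0.63 (-0.68 to -0.59).

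Among the response genes, Cd9 (chromosome 6, 125460266 to 125494791, - strand) was abundant in both libraries. WT cells held 16941 UMIs, or 914 CPM (899.9 to 927), and the library labelled IRF8KO held 21052, or 1109 CPM (1094 to 1124). The log2 ratio was 0.28 (0.25 to 0.31), and 0.56 above the median gene. At equal depth 79.4% (77.9 to 80.9) and 84.9% (83.8 to 86.0) of cells had a Cd9 UMI, and 56.7% of neutrophil-like cells did; without thinning it was 90.4% and 92.8%.

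Itgax (chromosome 7, 128129547 to 128150657, + strand) was rare in both libraries and somewhat less so in the library labelled IRF8KO. It had 88 UMIs in 78 WT cells, at 4.75 CPM (3.81 to 5.85), and 185 in 166 cells of the other library, at 9.75 CPM (8.39 to 11.3). Its log2 ratio stood at 1.04 (0.66 to 1.42), just past 2-fold, and it fell below 2-fold in 4 of the 10 alternatives, to 0.81 with a stricter filter on cells. At equal depth 0.961% (0.644 to 1.38) and 1.77% (1.41 to 2.20) of cells had an Itgax UMI, against 1 of 97 neutrophil-like cells (1.03%, 0.0261 to 5.61), and 2.36% and 3.32% without thinning. The interval of the neutrophil-like cells, from 1 cell with a UMI, spans both shares, so this comparison could not tell either share from background.

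Gpnmb (chromosome 6, 49036546 to 49070929, + strand) had 5 UMIs in 2 WT cells and 114 in 71 cells of the library labelled IRF8KO. The levels were 0.270 CPM (0.0876 to 0.629) and 6.01 CPM (4.95 to 7.22), with a log2 ratio of 4.48 (3.21 to 6.13). The size of the ratio was unsteady, at 2.46 with a pseudocount of 1 CPM and 6.51 with the stricter filter on cells. It was 2.20 (0.70 to 4.16) in cells of 2000 to 4000 UMIs and 6.38 (3.81 to 11.72) in those of at least 8000. At equal depth 1 of 3019 WT cells (0.0331%, 0.000839 to 0.184) and 34 of 4509 cells (0.754%, 0.523 to 1.05) had a Gpnmb UMI, and 0 of 97 neutrophil-like cells did, which allows up to 3.09% and so gives no background at this level. Unthinned shares were 0.0605% and 1.42%. Gpnmb UMIs were concentrated: 11 cells of the library labelled IRF8KO held 3 or more, up to 8 in a cell.

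Spp1 (chromosome 5, 104435118 to 104441050, + strand) went the other way. It had 96 UMIs in 51 WT cells, at 5.18 CPM (4.19 to 6.32), but 9 UMIs in 5 cells of the library labelled IRF8KO, at 0.474 CPM (0.217 to 0.90). The ratio on the log2 scale was -3.45 (-4.62 to -2.46), and -1.32 once neutrophil-like cells were included, since those cells held Spp1 themselves. At equal depth 0.828% (0.537 to 1.22) of WT cells and 0.0444% (0.00537 to 0.160) of the other library's cells had a Spp1 UMI, against 1.54% and 0.0999% without thinning and 5.15% of neutrophil-like cells, which therefore give no background for this gene.

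Counted together, 1.72% (1.29 to 2.25) of thinned WT cells and 2.48% (2.05 to 2.98) of those of the library labelled IRF8KO had a UMI of Itgax, Gpnmb or Spp1. With the stricter filter the shares were 1.37% and 1.64%. In that library 108 cells had UMIs of a single gene of the 3, 4 cells of a pair and 0 cells of all 3. Markers of other brain cells, some of which also express these genes, made up a small share of all UMIs in both libraries. The oligodendrocyte and endothelial sums still lay above the levels of Itgax, Gpnmb and Spp1. The part of other cells in the UMIs of these 3 genes was not tested. The 4 oligodendrocyte markers summed to 40.7 CPM in WT cells against 44.8 CPM in the others, the 4 astrocyte markers to 4.31 and 6.32 CPM and the 3 neuron markers to 2.27 and 2.11 CPM. The 3 endothelial markers summed to 52.5 and 22.9 CPM, with Cldn5 at 0 in both, Pecam1 at 52.0 and 3.64 CPM and Flt1 at 0.485 and 19.2 CPM, and the 5 lymphocyte markers to 0 and 1 UMI.

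The wider DAM gene list, without the 10 genes, held genes of large difference in both directions. Of 33 listed genes 26 reached 10 CPM, of which 12 (46.2%, against 5.61% of all genes) were at least 2-fold higher and 3 (11.5%, against 9.28%) at least 2-fold lower, with a median of 0.55, or 0.83 relative to all genes. Of the 12 higher genes, 6 (Cst7, Ch25h, Igf1, Cox6a2, Lilrb4a and Cybb) reached 10 CPM in the library labelled IRF8KO alone and so had to be higher there, and the count and median support nothing by themselves. Ch25h, which makes 25-hydroxycholesterol, had 9 WT UMIs and 1720 in the other library, a log2 ratio of 7.54 (6.62 to 8.68). Apoe, a lipoprotein that TREM2 can bind, stood at 7.53 (7.50 to 7.56), and Cybb, a subunit of the phagocyte oxidase, at 7.05 (6.61 to 7.53). Serpine2, Ccl6 and Timp2 were the 3 lower genes, at -3.24 (-3.34 to -3.14), -3.32 (-3.51 to -3.14) and -1.66 (-1.71 to -1.60). Lpl, a lipase often set beside Itgax in this state, was at 20.7 and 24.3 CPM.

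Some partners of the response proteins differed by more than Itgax did. Of 16 listed genes (integrin chains and tetraspanins with Cd44, Ptgfrn and Igsf8), 15 reached 10 CPM. Their median was -0.08, or 0.20 relative to all genes. Of these 15, 3 were at least 2-fold higher (20%, against 5.61% of all genes) and 2 at least 2-fold lower (13.3%, against 9.28%). All 3 higher genes, Itgal, Itga4 and Cd44, reached 10 CPM in the library labelled IRF8KO alone, so their count is no support. Itgal, the integrin chain CD11a, had 2 WT UMIs and 289 in the other library, a log2 ratio of 7.14 (5.28 to 10.19). Itga4, an integrin chain that can bind osteopontin, stood at 5.26 (4.97 to 5.56), and Cd44, another osteopontin receptor, at 4.63 (4.08 to 5.24). Itgb2, the chain that pairs with CD11c, was at 245 and 231 CPM, while Itgam, its partner in complement receptor 3, was at 573 and 241 CPM.

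Within each library, Itgax was found more often in cells with few microglia transcripts. It was also more frequent in cells with many DAM transcripts, in the library labelled IRF8KO only where Apoe was left out of the DAM list. Thinned cells were ranked by their summed UMIs of gene lists that hold none of the 10 genes, and the cells at or above the 75th percentile were set against those at or below the 25th. These are ranges of a score and not cell types, and between 0 and 169 cells lay at a microglia or DAM (without Apoe) cut-off value. In the library labelled IRF8KO, Itgax was found in 3.18% (2.28 to 4.30) of 1259 cells low in microglia genes and in 0.657% (0.284 to 1.29) of 1217 cells high in them. Gpnmb followed the same order, at 1.43% (0.850 to 2.25) and 0.164% (0.0199 to 0.592), as did Axl, at 2.70% (1.88 to 3.75) and 0.411% (0.133 to 0.956). Trem2, Mertk, Pros1 and Cd9 ran the opposite way: Trem2 was found in 90.9% of cells low in microglia genes and 97.4% of cells high in them, Mertk in 46.9% and 61.9%, Pros1 in 7.23% and 14.4% and Cd9 in 79.1% and 87.9%, each pair with intervals apart. In WT, Itgax went from 2.38% (1.42 to 3.74) to 0.363% (0.0749 to 1.06) and Spp1 from 2.25% (1.32 to 3.58) to 0.242% (0.0293 to 0.871). With the 10th and 90th percentiles in their place, intervals overlapped for Spp1 in WT, at 3.19% (1.54 to 5.80) and 0.308% (0.00779 to 1.70). They also overlapped for Gpnmb in the library labelled IRF8KO, at 1.32% (0.487 to 2.85) and 0.200% (0.00507 to 1.11).

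By the DAM list without Apoe, chosen after values with Apoe had been seen, Itgax was in 0.743% (0.340 to 1.41) of the low and 3.74% (2.72 to 5.01) of the high cells of the library labelled IRF8KO. Gpnmb was in 0.165% (0.0200 to 0.595) and 2.0% (1.27 to 2.99), and Mertk in 58.5% and 51.6%. In WT, Itgax went from 0 of 790 cells, which allows up to 0.380%, to 2.91% (1.88 to 4.30), Spp1 from 0.253% to 2.06% and Cd9 from 74.2% to 85.0%. With Apoe in the list no gene was found in a higher share of cells in the upper range of the library labelled IRF8KO. Itgax stood there at 1.22% (0.669 to 2.04) and 2.57% (1.73 to 3.67), and Pros1 was lower, at 8.06% against 11.8%. Trem2 and Tyrobp were in most cells of both ranges, so shares show little of their level. By the list without Apoe, Trem2 went from 3.08 to 3.83 UMIs per cell in that library and from 3.15 to 3.94 in WT. Tyrobp went from 7.13 to 8.82 and from 4.39 to 5.57. With Apoe, that library had 3.08 and 3.79 for Trem2 and 7.84 and 7.77 for Tyrobp. These means have no intervals. Ranked by border macrophage genes, none of the 10 genes differed in share of cells beyond the intervals in the library labelled IRF8KO. WT cells could not be divided at these percentiles by that list or by interferon genes, since both percentiles were 0. Ranked by interferon genes in the library labelled IRF8KO, Axl was the gene whose share differed. It was in 0.725% (0.362 to 1.29) of 1518 low cells and 2.16% (1.52 to 2.98) of 1664 high cells.

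**Figure D4:**
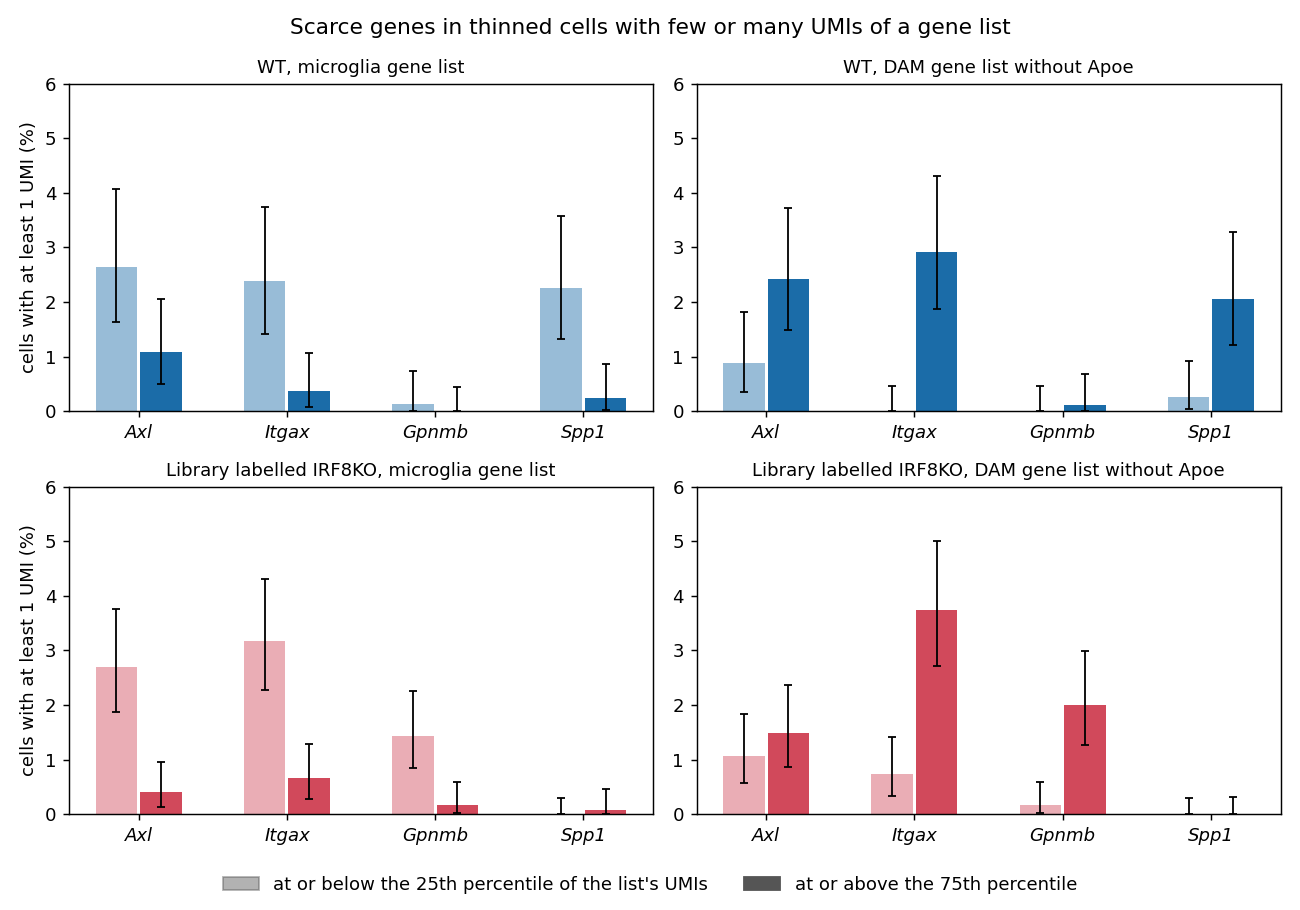
Share of thinned cells (y, %) with at least 1 UMI of Axl, Itgax, Gpnmb or Spp1 among cells with few (light) or many (dark) UMIs of the microglia list or the DAM list without Apoe, in the WT library (top) and the library labelled IRF8KO (bottom); error bars are exact 95% counting intervals. Itgax is lower in cells rich in microglia genes and higher in cells rich in DAM genes in both libraries.

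The number of Trem2 UMIs in a thinned cell sorted Itgax and Gpnmb little. In the library labelled IRF8KO, Itgax was found in 1.11% (0.449 to 2.28) of 628 cells with 1 Trem2 UMI and 1.69% (1.17 to 2.37) of 1948 cells with 4 or more. Gpnmb was found in 0.318% (0.0386 to 1.15) and 0.975% (0.588 to 1.52) of the same cells. These intervals overlap, so a difference was not detectable at this depth. Cd9 did differ, at 80.7% (77.4 to 83.7) and 88.0% (86.5 to 89.4). Gas6 differed as well, at 24.0% (20.8 to 27.6) and 30.3% (28.3 to 32.4). In WT, Cd9 differed between the same ranges, at 74.0% (69.1 to 78.5) and 81.2% (79.1 to 83.2), while Gas6 intervals overlapped. In the library labelled IRF8KO, Itgax stood at 0.791% (0.0959 to 2.83) with 0 Trem2 UMIs and 2.26% (1.61 to 3.09) with 2 to 3. These intervals overlap those of the other Trem2 ranges. Itgax was found more often beside Gpnmb than without it: of 34 cells with a Gpnmb UMI, 4 (11.8%, 3.30 to 27.5) had an Itgax UMI, against 1.70% (1.34 to 2.12) of the 4475 without.

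The genes most raised in cells with a member UMI were then read for Axl, Gas6, Itgax, Gpnmb and Spp1, where at least 30 thinned cells of a library held the gene, which Spp1 never reached. In the library labelled IRF8KO, cells with Itgax had more Cst7 (log2 ratio 1.64, 1.24 to 2.03), a cystatin of the DAM state, and more Cstb, at 1.38, and Fxyd5, in 57.5% of cells. Cells with Gpnmb had more Ccl3, at 3.22, of which 4 of 34 cells held all 25 UMIs and 1 cell 22 of them, and more Cst7 and Lgals1, at 2.09 and 2.08, in 18 and 17 of the cells. Cells with Axl had more Cxcl10, an interferon-induced chemokine, and the MHC class II genes H2-Aa and H2-Ab1, at 5.74, 4.92 and 4.59, but these lay in 7, 4 and 5 of 59 cells. In WT, cells with Axl had more Ccl12, Apoe and Lrrc3, at 1.59 (0.82 to 2.27), 1.34 (1.04 to 1.64) and 1.06 (0.48 to 1.59). These lay in 11, 21 and 20 of 44 cells, and 1 cell held 22 of the 97 Apoe UMIs. Cells with Gas6 stood apart little, with highest ratios of 0.28 for Tmem14c in WT and 0.30 for Mrc1 in the library labelled IRF8KO.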

How the data were processed

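Deposited matrices hold raw UMI counts per gene and barcode, made by the authors with Cell Ranger 3.1 on build mm10, per the submitters' processing notes; for annotation and cell calling the sources used here give nothing. The labels' protocols also name a full-length kit. The lowest barcodes held 500 and 501 UMIs. From these counts, UMIs were summed over the cells used and divided by the library total (CPM). A 0 was replaced by 3 counts over the group for a ratio. Intervals are exact Poisson (CPM), conditional binomial (ratios) and Clopper-Pearson (shares). For equal depth, cells of at least 2000 UMIs were drawn down to 2000; 285 WT and 498 cells of the other library were shallower and left out. No doublet caller was used; an alternative left out the 87 and 201 cells of highest UMI count. TMM factors came from edgeR 4.0.16 (Python 3.11.15 otherwise). Ratios and intervals were tested on simulated counts. Gene positions are from GENCODE M21 and start sequences from RefSeq. Apart from the 10 genes and Irf8, genes were named by rule: the 3 of each pathway list with the largest absolute log2 ratio at 10 CPM or more, and the 3 genes most raised in cells with a member (at least 200 CPM there, without mitochondrial, ribosomal protein and haemoglobin genes). Others named are list members chosen for their role after their values were seen. The 10 genes and the lists were chosen with earlier results of these data known.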

Additional observations from a re-analysis of the deposited data

Results flagged for a closer look

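Spp1 stood at 38.0 CPM (26.0 to 53.6) in the 98 neutrophil-like cells set aside from the comparison, above 5.18 CPM in WT cells and 0.474 CPM in the cells used of the library labelled IRF8KO. Its 32 UMIs lay in 22 cells, with at most 3 in a cell. It was singled out because its signal lies outside the compared cells and above the level in WT.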

How the results depend on the processing

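No replicate could be left out, and no paired analysis was possible because each group is 1 library. Alternatives without shared barcodes and without Apoe were chosen after seeing the data. Counts of at least 2-fold lower members stayed at 2 in all 10 alternatives. That of higher members went from 2 to 1, with Itgax below 2-fold, with equal weight for each cell, all kept cells, the stricter filter (2000 UMIs, 1000 genes, 5% mitochondrial) and a pseudocount of 1 CPM. Under TMM scaling Trem2 became 0.13, Axl 0.039, Irf8 0.0064 and the integrin and tetraspanin median 0.17, with 1 in place of 2 of that list lower and 0 in place of 3 signalling genes lower. Without mitochondrial and ribosomal protein genes in the totals, Trem2 was 0.022 and that median 0.059, and 1 signalling gene was lower, as without the 10 most abundant genes; a common factor moves all genes there. With all kept cells, 2 TREM genes were higher and 2 engulfment receptors and 2 machinery genes lower (1 each before). Without the cells of highest UMI count, 2 engulfment receptors were lower. With no CPM minimum, 3 TREM genes were lower (median -1.57) and 5 DAM genes, since scarcer genes enter. These values leave out genes with a count of 0 in a library. Among them are Trem1, with 0 WT UMIs, and Postn, with 168 WT UMIs and 0 in the other library. Cells with Itgax, Gpnmb or Spp1 were 0.938% (WT) and 1.26% when thinned to 1000 UMIs, and 1.64% in the library labelled IRF8KO under the stricter filter. At percentiles 10 and 90, genes lower in the upper range numbered 1 for WT microglia genes (2 before, Spp1 lost), 1 for WT interferon genes (Mertk, 64.8% and 58.4%; the main percentiles gave no division and so 0) and 0 for the DAM list in the library labelled IRF8KO (1 before, Pros1). Where no construction shows it, the cause was not tested. Depth limits Axl, Itgax, Gpnmb and Spp1, at under 10 CPM.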

Other observations

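Trem2 UMIs in neutrophil-like cells lay in few barcodes: 5 of the 98 cells held 138 of 161 (85.7%), and the 5 cells richest in Mertk held 65 of 70. Tyrobp, which neutrophils are known to express, was spread more widely, in 98 of 98 cells and with 24.5% of 1271 UMIs in the 5 richest.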
